A study of Homo sapiens with 12 samples.

Results

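Guanylate-binding proteins and the interferon-gamma axis were represented by 9 genes: GBP1, GBP2, GBP3, GBP4, GBP5, IRF1, IFNGR1, IFNGR2 and IDO1. They were found by their gene symbol among the probe sets that carry a single symbol in the platform annotation, which gave 23 of 44988 such probe sets and 9 of 18132 genes. Expression was profiled on 12 Affymetrix PrimeView arrays of VM-CUB1 and 5637, established urothelial carcinoma cell lines, to ask which genes respond to the long noncoding RNA HOTAIR. VM-CUB1_HOTAIR 20 is clone 20 of VM-CUB1 with stable ectopic HOTAIR from the plasmid pLZRS-HOTAIR, and 5637_HOTAIR 4 is clone 4 of 5637 with the same plasmid. VM-CUB1_LV and 5637_LV are the empty vector controls, and all transfected cells, controls included, were selected with puromycin. Each group had 3 RNA preparations of 1 clone, so that the tests see how preparations vary but not how clones vary, and clone and HOTAIR cannot be told apart.

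Interferon-gamma binds a receptor of IFNGR1 and IFNGR2 chains, which carries the kinases JAK1 and JAK2. Many genes that respond hold gamma-activated sites (GAS) near their start, among them IRF1, a transcription factor that binds interferon-stimulated response elements (ISRE). Guanylate-binding proteins are large GTPases of cell-autonomous immunity that restrict intracellular pathogens and help to start inflammasome responses, and they belong to the genes that interferon-gamma induces most strongly. IDO1 degrades tryptophan along the kynurenine pathway, which limits T cells and the growth of some microbes, and it is a classical interferon-gamma target of epithelial and tumour cells.

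RefSeq start site windows, from 250 bases before to 50 bases after each start, were at hand for 6 of the 9 genes. GBP2, GBP5 and IDO1 had none there. The windows of GBP1, GBP3, GBP4 and IRF1 are shown because these genes rose in at least 1 line and carry interferon motifs. Capitals mark matches to the GAS letters TTCNNNGAA, which read the same on both strands, and to the ISRE letters GAAANNGAAA or, on the other strand, TTTCNNTTTC. Positions are counted from the annotated start base as 0, and each sequence is written 5′ to 3′ on the strand of its gene (GRCh38.p14).
GBP1 (chr1:89065159-89065458, minus strand): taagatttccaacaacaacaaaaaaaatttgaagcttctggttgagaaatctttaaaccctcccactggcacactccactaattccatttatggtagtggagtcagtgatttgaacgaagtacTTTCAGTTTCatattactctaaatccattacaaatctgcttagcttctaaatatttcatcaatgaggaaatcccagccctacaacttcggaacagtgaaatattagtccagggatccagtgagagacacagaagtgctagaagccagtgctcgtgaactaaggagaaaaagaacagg
GBP3 (chr1:89022817-89023116, minus strand): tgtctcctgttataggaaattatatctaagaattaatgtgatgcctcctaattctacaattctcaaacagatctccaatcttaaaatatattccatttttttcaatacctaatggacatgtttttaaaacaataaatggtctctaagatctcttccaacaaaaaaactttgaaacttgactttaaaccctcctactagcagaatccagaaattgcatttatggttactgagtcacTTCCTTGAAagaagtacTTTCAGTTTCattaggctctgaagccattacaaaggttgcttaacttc
GBP4 (chr1:89198893-89199192, minus strand): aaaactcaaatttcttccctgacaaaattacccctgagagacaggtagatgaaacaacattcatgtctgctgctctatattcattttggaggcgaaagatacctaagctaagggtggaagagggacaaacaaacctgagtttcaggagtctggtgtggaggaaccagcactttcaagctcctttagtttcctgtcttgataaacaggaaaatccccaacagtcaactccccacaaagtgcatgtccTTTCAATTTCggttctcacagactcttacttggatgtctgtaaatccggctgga
IRF1 (chr5:132490724-132491023, minus strand): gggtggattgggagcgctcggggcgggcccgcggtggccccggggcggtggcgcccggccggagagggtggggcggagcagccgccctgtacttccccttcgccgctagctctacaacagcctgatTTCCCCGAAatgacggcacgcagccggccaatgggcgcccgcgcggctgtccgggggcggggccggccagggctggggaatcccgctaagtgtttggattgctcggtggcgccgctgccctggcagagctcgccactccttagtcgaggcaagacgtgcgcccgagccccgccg

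GBP1 held an ISRE match that begins at -127, GBP4 one at -4, and GBP3 one at 2, just past its start base, behind a GAS match at -15. IRF1 held a GAS match at -124 and no ISRE match. GBP1 and GBP3 shared the run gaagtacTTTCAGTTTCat of 19 bases around their ISRE matches. The windows of both receptor chains, and those of GBP6 and GBP7 of the same family, held neither motif. Of 35116 windows of 300 bases in the RefSeq table, 3.57% held an ISRE match and 7.66% a GAS match. No 2 matches overlapped in the printed windows. A match describes letters and not a bound site. Sites that depart from these strict letters are not found, so a window without a match is not shown to lack a site.

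The deposited log2 values are centred on the median of the 6 arrays of a cell line, so they give differences between HOTAIR and vector arrays and no expression level. No statement on how strongly a gene is expressed, on the identity of the cells by marker levels, or on levels between genes or lines was possible. A gene was represented by the mean of its probe sets, and a gene counted as called where limma, two-sided and with 3 against 3 arrays, gave an adjusted p (Benjamini-Hochberg, over all 18132 genes) under 0.01. Standard errors (SE) are on the log2 scale throughout. HOTAIR itself was not analysed here. In total cell RNA, a smaller share of cells with a transcript and less transcript per cell cannot be told apart. The number of arrays limits the precision.

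In VM-CUB1_HOTAIR 20, 6 of the 9 genes rose and 0 fell: GBP1, GBP2, GBP3, GBP4, IFNGR2 and IDO1. Among all genes there, 41.6% were called, 21.1% higher and 20.5% lower. In 5637_HOTAIR 4, 8 of the 9 genes rose and 0 fell, GBP5 being the exception, where 29.9% of all genes were called, 14.7% higher and 15.2% lower. The same 6 genes rose in both lines, against 5.56% of all genes. At least 2-fold rises were found for 4 of the 9 genes in VM-CUB1 (5.74% of all genes) and for 6 in 5637 (2.86%). These counts include values near the cut-off. IRF1 in 5637 had a log2 fold change of 1.01, and of 0.95 to 1.05 without single arrays. With the median of probe sets in place of the mean, IRF1 in 5637 was at 1.29, and GBP4 was at 0.83 in VM-CUB1 and 0.98 in 5637. The median log2 fold change of the 9 genes was 0.60 in VM-CUB1 and 1.25 in 5637, compared with -0.03 and -0.04 over all genes. HOTAIR and vector arrays did not overlap in 7 of the 9 genes in VM-CUB1 and in all 9 in 5637. This was so for 58% and 51.3% of all genes. The plot of single arrays shows these values.

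**Figure D1:**
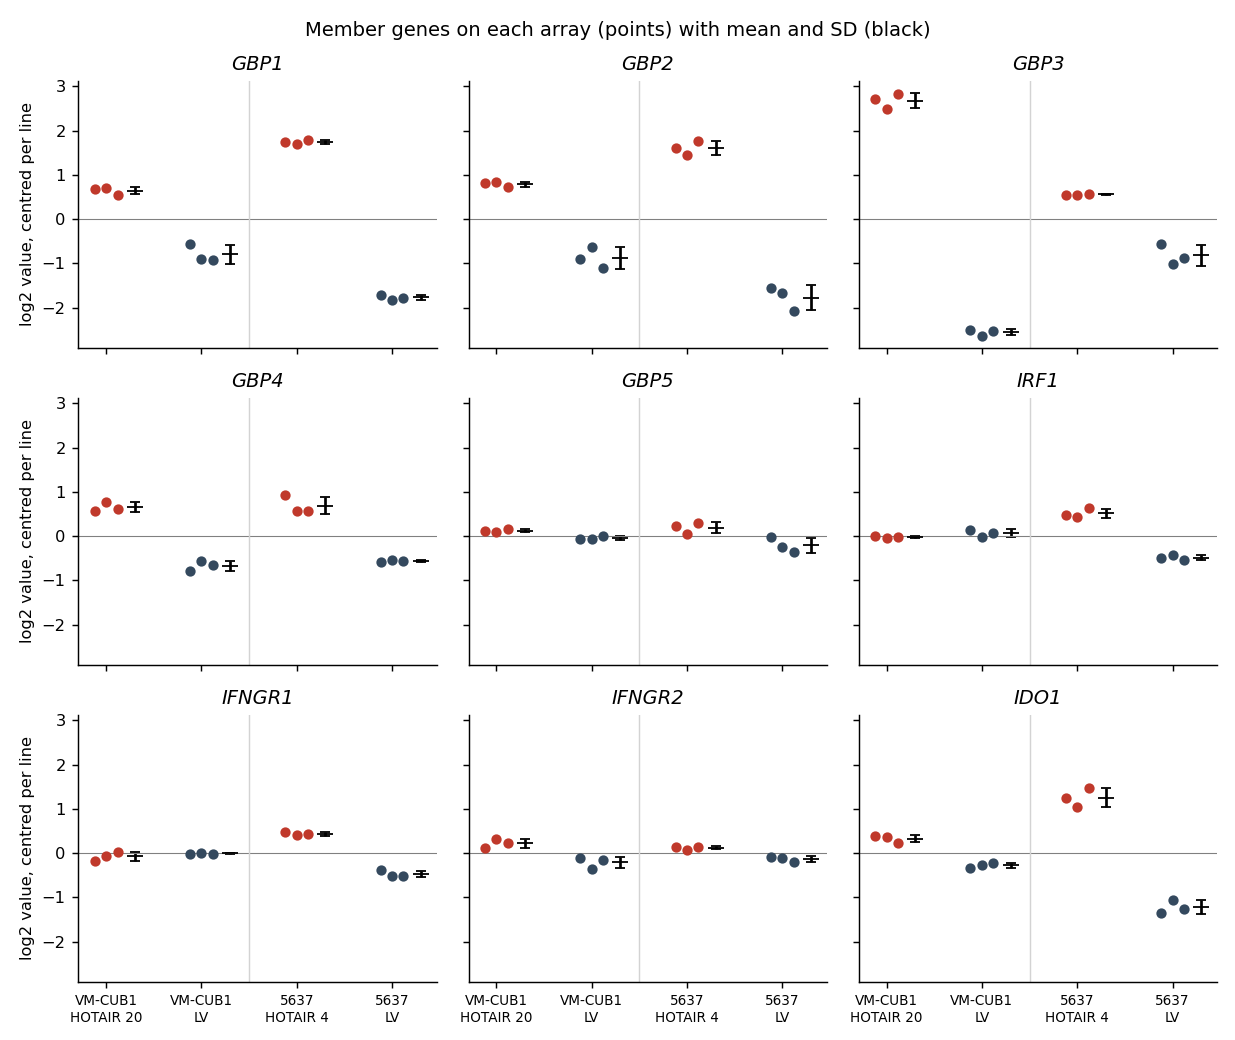
Centred log2 values (vertical axis) of the 9 genes on each of the 12 arrays (points; red HOTAIR clones, dark vector controls), with the mean and SD of each group of 3 arrays in black. HOTAIR and vector arrays are far apart for GBP3 in VM-CUB1 and for GBP1 and GBP2 in 5637, and they overlap for IRF1 and IFNGR1 in VM-CUB1.

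The receptor chains differed in how they changed. IFNGR1, the chain that binds the ligand, lay at -0.17, -0.07 and 0.02 on the VM-CUB1_HOTAIR 20 arrays and at -0.01, 0.00 and -0.01 on the VM-CUB1_LV arrays. These groups overlapped, and the log2 fold change of -0.06 (SE 0.063, 95% confidence interval -0.21 to 0.08, adjusted p = 0.45) did not pass the test. In 5637, IFNGR1 lay at 0.47, 0.40 and 0.43 on the HOTAIR arrays and at -0.39, -0.51 and -0.51 on the vector arrays. All HOTAIR arrays were above all vector arrays, and IFNGR1 rose 1.87-fold (0.90 on the log2 scale, SE 0.056, adjusted p = 7.2e-06). The difference of the HOTAIR effect, VM-CUB1 minus 5637, was -0.96 on the log2 scale (SE 0.082, adjusted p = 3.6e-07).

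IFNGR2, the chain that brings JAK2 to the receptor, had smaller changes. In VM-CUB1 its values were 0.12, 0.32 and 0.24 with HOTAIR and -0.12, -0.35 and -0.16 with the vector, a 1.36-fold rise (log2 fold change 0.44, SE 0.080, adjusted p = 0.0017). In 5637 they were 0.15, 0.08 and 0.15 against -0.08, -0.10 and -0.20, a 1.19-fold rise (log2 fold change 0.25, SE 0.055, adjusted p = 0.0069). The groups did not overlap in either line, but both calls were lost with the t-test that the methods name (adjusted p = 0.021 in each), and that in 5637 was lost without any single array other than 5637_LV replicate 1. The lines were not shown to differ for IFNGR2 (0.19, 95% confidence interval -0.03 to 0.40, adjusted p = 0.14).

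IRF1 rose in 5637 and was not called in VM-CUB1. Its 5637 values were 0.47, 0.44 and 0.64 with HOTAIR and -0.50, -0.43 and -0.54 with the vector, and it rose 2.01-fold (1.01 on the log2 scale, SE 0.067, adjusted p = 1.0e-05). In VM-CUB1 the values were 0.01, -0.04 and -0.02 against 0.15, -0.02 and 0.07, with overlapping groups and a log2 fold change of -0.09 (SE 0.061, 95% confidence interval -0.23 to 0.05, adjusted p = 0.29). VM-CUB1 minus 5637, the IRF1 effect differed by -1.09 (SE 0.090, adjusted p = 2.9e-07). In 5637, 3 of the 4 IRF1 probe sets had log2 fold changes from 1.29 to 1.41, while the 11761782_at set stood at 0.01 (adjusted p = 0.96 over all probe sets), so that the mean of 1.01 lies below what most of its probe sets gave.

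GBP1 was the member with the largest rise in 5637. On the 5637_HOTAIR 4 arrays it lay at 1.74, 1.69 and 1.80, and on the 5637_LV arrays at -1.71, -1.82 and -1.77. The spread within groups was small (SD 0.06 in each), and the rise was 11.4-fold (log2 fold change 3.51, SE 0.055, adjusted p = 2.1e-08). By size of the rise this was rank 18 of 18132 genes in 5637. In VM-CUB1 it lay at 0.69, 0.70 and 0.55 with HOTAIR and at -0.55, -0.91 and -0.93 with the vector, a 2.72-fold rise (log2 fold change 1.44, SE 0.104, adjusted p = 5.4e-06). The effect was thus smaller in VM-CUB1 by 2.07 on the log2 scale (difference -2.07, SE 0.125, adjusted p = 1.4e-08). With quantile normalization within each line the GBP1 difference was -1.33 (adjusted p = 1.3e-07) and its log2 fold change in 5637 was 2.76.

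GBP2 followed closely. Its 5637 values were 1.60, 1.45 and 1.76 with HOTAIR and -1.56, -1.67 and -2.08 with the vector, a 10.4-fold rise (log2 fold change 3.38, SE 0.136, adjusted p = 8.8e-07). Its VM-CUB1 values were 0.81, 0.83 and 0.72 against -0.89, -0.62 and -1.11, a 3.16-fold rise (log2 fold change 1.66, SE 0.113, adjusted p = 3.6e-06). No group of arrays overlapped with its control in either line. Between the lines, the effects on GBP2 differed by -1.72 (SE 0.195, adjusted p = 6.2e-06). With quantile normalization within each line the GBP2 difference was -0.99 (adjusted p = 2.9e-04) and its log2 fold change in 5637 was 2.64.

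GBP3 had the opposite order of the lines. On the VM-CUB1_HOTAIR 20 arrays it lay at 2.71, 2.50 and 2.83, and on the VM-CUB1_LV arrays at -2.50, -2.63 and -2.53. This was a 37.5-fold rise (log2 fold change 5.23, SE 0.087, adjusted p = 1.3e-09), rank 25 of all genes by size of the rise in VM-CUB1. In 5637 the values were 0.55, 0.55 and 0.58 against -0.55, -1.02 and -0.87, a 2.59-fold rise (log2 fold change 1.37, SE 0.108, adjusted p = 2.6e-05). Between the lines, the effects on GBP3 differed by 3.86 (SE 0.150, adjusted p = 1.9e-10), and GBP3 was the only one of the 9 genes with a called difference in favour of VM-CUB1. It rests on a single probe set, 11741911_a_at, whose name does not mark it as sharing probes with other genes.

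GBP4 rose by similar amounts in the lines. With HOTAIR its VM-CUB1 values were 0.57, 0.78 and 0.62, and with the vector -0.79, -0.56 and -0.66 (log2 fold change 1.33, SE 0.081, adjusted p = 1.9e-06). In 5637 the values were 0.92, 0.57 and 0.58 against -0.58, -0.53 and -0.57 (log2 fold change 1.25, SE 0.095, adjusted p = 2.1e-05). The folds were 2.51 and 2.38. The interval of the difference, -0.21 to 0.37 on the log2 scale, leaves room for a small difference in either direction (difference 0.08, adjusted p = 0.67), and the sign of the difference turned with the median of its probe sets in place of the mean (-0.15). The GBP4 log2 fold change in VM-CUB1 was then 0.83.

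GBP5, which assembles inflammasomes and restricts viruses, was not called in either line. Its VM-CUB1 values were 0.11, 0.09 and 0.16 with HOTAIR and -0.07, -0.07 and 0.00 with the vector (log2 fold change 0.17, 95% confidence interval 0.04 to 0.29, adjusted p = 0.031). Its 5637 values were 0.22, 0.05 and 0.29 against -0.02, -0.24 and -0.36 (log2 fold change 0.39, 95% confidence interval 0.17 to 0.62, adjusted p = 0.012). The HOTAIR arrays stood above the vector arrays in both lines, but the adjusted p was not under 0.01 in either. Without 5637_HOTAIR 4 replicate 2 or 5637_LV replicate 1, the 5637 value passed the test, at log2 fold changes of 0.47 and 0.49. The GBP5 probe sets differed in 5637, where 11729274_a_at gave 0.70 and 11733439_a_at gave 0.09, and neither was called.

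IDO1 rose in both lines. In 5637 it lay at 1.25, 1.05 and 1.47 with HOTAIR and at -1.35, -1.05 and -1.26 with the vector, a 5.56-fold rise (log2 fold change 2.48, SE 0.115, adjusted p = 1.7e-06). In VM-CUB1 it lay at 0.39, 0.37 and 0.23 against -0.33, -0.26 and -0.23, a 1.52-fold rise (log2 fold change 0.60, SE 0.064, adjusted p = 6.4e-05). Between the lines, the effects on IDO1 differed by -1.87 (SE 0.141, adjusted p = 1.2e-07). IDO1 is read by a single probe set.

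**Figure D2:**
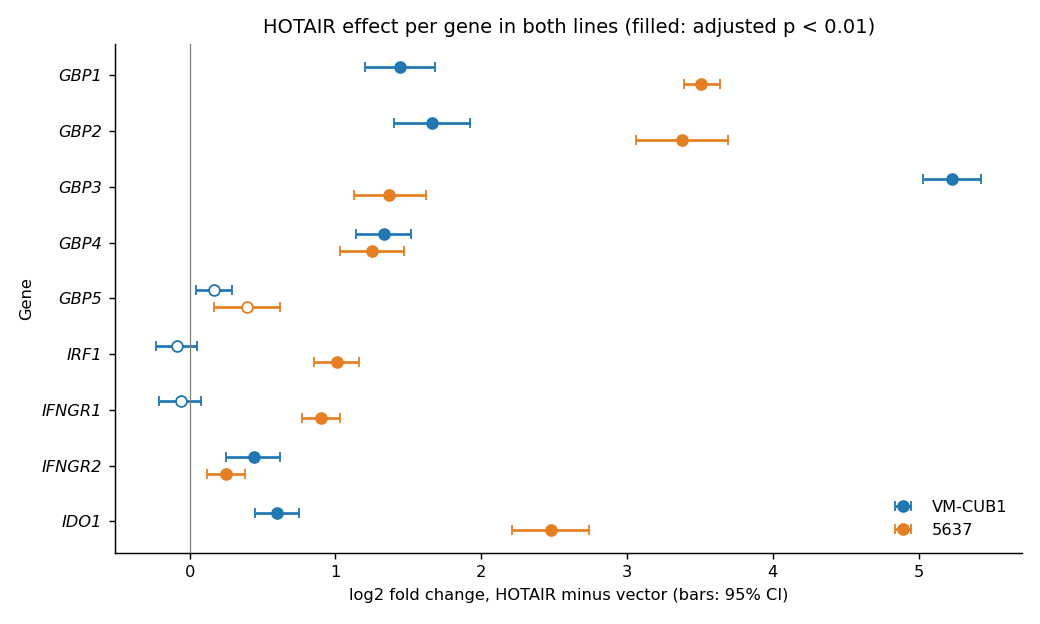
Log2 fold change of HOTAIR against vector (horizontal axis) for each of the 9 genes in VM-CUB1 (blue) and 5637 (orange), with 95% confidence intervals of limma as bars and filled points for called genes. GBP3 at 5.23 stands alone in VM-CUB1, whereas GBP1 at 3.51 and GBP2 at 3.38 lead in 5637.

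Ordered by log2 fold change from the highest, the genes of VM-CUB1 were GBP3, GBP2, GBP1, GBP4, IDO1, IFNGR2, GBP5, IFNGR1 and IRF1. The interval of GBP3 (5.03 to 5.43) lay apart from all others, while those of GBP2 (1.40 to 1.92), GBP1 (1.20 to 1.68) and GBP4 (1.14 to 1.52) overlapped. The interval of IDO1 (0.45 to 0.75) overlapped with that of IFNGR2 (0.25 to 0.62). In 5637 the order was GBP1, GBP2, IDO1, GBP3, GBP4, IRF1, IFNGR1, GBP5 and IFNGR2. There the interval of GBP1 (3.39 to 3.64) overlapped with that of GBP2 (3.06 to 3.69), and IDO1 (2.21 to 2.74) lay between these and the rest. The intervals of GBP3 (1.13 to 1.62) and GBP4 (1.03 to 1.47) overlapped, as did those of IRF1 (0.85 to 1.16) and IFNGR1 (0.77 to 1.03). That of IRF1 also overlapped with those of GBP3 and GBP4. The interval of GBP5 (0.17 to 0.62) overlapped with that of IFNGR2 (0.12 to 0.38). These are orders of differences, not of levels, and they depend on the probe sets that were averaged. Without probe sets that share probes, GBP4 (1.45) stood above GBP1 (1.27) in VM-CUB1.

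The HOTAIR effect differed between the lines in 6 of the 9 genes, where 42% of all genes were called. In 5 of them, GBP1, GBP2, IRF1, IFNGR1 and IDO1, the rise was larger in 5637, against 20.1% of all genes with a called difference in that direction.

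Single probe sets agreed in direction for the called genes with several of them. In VM-CUB1, 14 of the 23 probe sets were called higher, where 18.9% of all 49293 non-control probe sets were. In 5637, 17 were called higher, against 12.3% of all. The 5 probe sets of GBP1 had log2 fold changes from 0.95 to 1.87 in VM-CUB1 and from 2.87 to 4.05 in 5637. GBP4 varied most, with 2 probe sets at 2.47 and 2.25 in VM-CUB1 and at 2.25 and 1.95 in 5637, and the remaining 3 between 0.46 and 0.82 and between 0.23 and 0.91. Of the 2 GBP2 probe sets, 11719447_s_at gave 2.37 and 11762406_s_at gave 0.94 in VM-CUB1, and they gave 3.54 and 3.21 in 5637.

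The guanylate-binding proteins are close relatives, and IDs ending in _s_at or _x_at mark probe sets that can read several transcripts. This was the case for 4 of the 5 GBP1 probe sets, both of GBP2 and 1 of 5 of GBP4. How far these read other family members was not tested. The GBP1 probe set without such a mark, 11752930_a_at, gave 1.27 in VM-CUB1 and 2.87 in 5637, and without marked probe sets the difference of GBP1 between the lines was -1.60 (adjusted p = 1.0e-06). For GBP2 no unmarked probe set was present. The marked GBP1 probe sets ranged from 0.95 to 1.87 in VM-CUB1 and from 3.03 to 4.05 in 5637, and GBP3 stood at 5.23 and 1.37. Whether the marked sets read GBP3 was not tested.

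**Figure D3:**
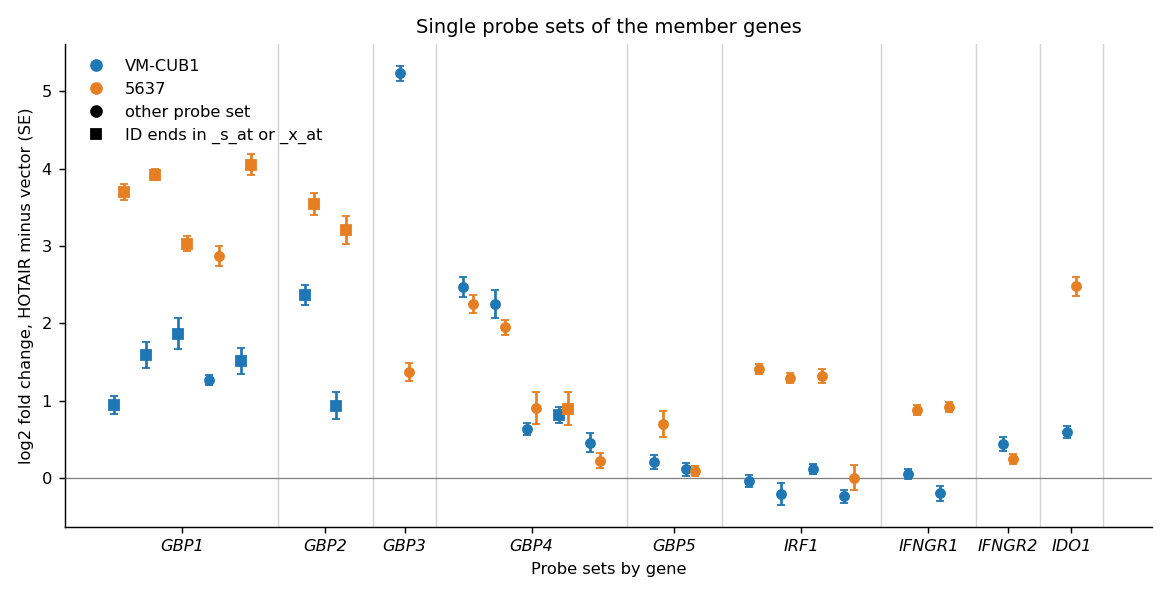
Log2 fold change with SE (vertical axis) of each of the 23 probe sets, grouped by gene along the horizontal axis, in VM-CUB1 (blue) and 5637 (orange), with squares for IDs ending in _s_at or _x_at. All GBP1 probe sets lie higher in 5637 than in VM-CUB1, the single GBP3 probe set lies lower, and 1 of the 4 IRF1 probe sets stays at 0.01 in 5637.

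The GBP genes lie side by side on chromosome 1 in the RefSeq gene order, as GBP3, GBP1, GBP2, GBP7, GBP4, GBP5 and GBP6. GBP6 changed in opposite directions, with a log2 fold change of -1.20 in VM-CUB1 (2.29-fold lower, SE 0.132, adjusted p = 7.9e-05) and of 1.14 in 5637 (2.2-fold higher, SE 0.086, adjusted p = 2.1e-05). Its difference between the lines was -2.33 (adjusted p = 1.0e-07). The 4 GBP6 probe sets ranged from -2.35 to -0.54 in VM-CUB1, where 3 were called lower. In 5637 they ranged from 0.74 to 1.72, and all 4 were called higher. GBP7 was not called in VM-CUB1 (0.11, 95% confidence interval -0.06 to 0.28) or in 5637 (-0.01, -0.19 to 0.16). It rests on a single probe set, 11741675_s_at, whose ID marks it as one that can read several transcripts. Thus neighbours within the cluster rose, fell or did not pass the test in VM-CUB1.

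The genes on either side of the cluster changed as well. KYAT3, which encodes a kynurenine aminotransferase, and RBMXL1, both next to GBP3, rose in VM-CUB1 with log2 fold changes of 1.55 (SE 0.052) and 1.11 (SE 0.056). In 5637, KYAT3 fell (-0.49, SE 0.084, adjusted p = 0.0018) and RBMXL1 rose (0.34, SE 0.070, adjusted p = 0.005). On the side of GBP6, LRRC8B, a subunit of volume-regulated anion channels, was called in 5637 (0.73, SE 0.074) and not in VM-CUB1 (0.23, adjusted p = 0.029). LRRC8C of the same channels was called in VM-CUB1 (0.86, SE 0.088) and not in 5637 (-0.10, adjusted p = 0.24). In VM-CUB1 the interval of KYAT3 (1.43 to 1.67) overlapped with those of GBP1, GBP2 and GBP4 and lay below that of GBP3.

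**Figure D4:**
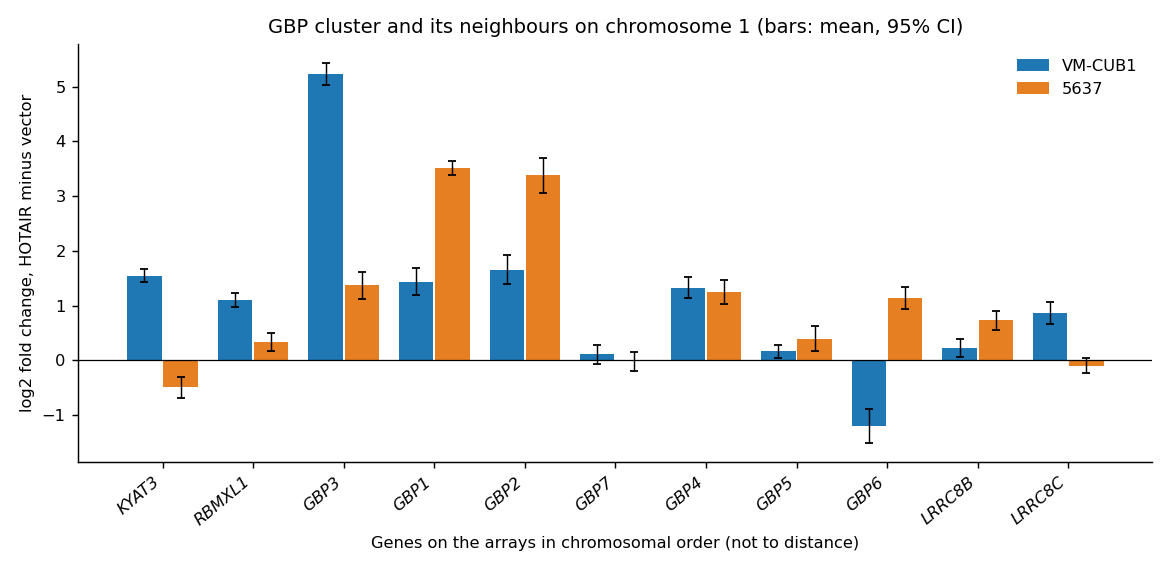
Log2 fold change with 95% confidence interval (vertical axis) of the genes of the GBP cluster and the 2 nearest measured genes on each side, in chromosomal order along the horizontal axis, in VM-CUB1 (blue) and 5637 (orange). The large rises lie at GBP3 in VM-CUB1 and at GBP1 and GBP2 in 5637, and GBP6 is lower in VM-CUB1 at -1.20 and higher in 5637 at 1.14.

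The ligand itself did not pass the test in either line. IFNG lay at -0.01, 0.19 and -0.15 with HOTAIR and at -0.03, 0.24 and 0.01 with the vector in VM-CUB1 (log2 fold change -0.06, 95% confidence interval -0.30 to 0.17). In 5637 it lay at -0.03, 0.16 and 0.03 against 0.23, -0.12 and -0.12 (0.06, -0.18 to 0.29). The groups overlapped in both lines. Since the values hold no level, they do not show whether IFNG was expressed.

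The counts of the following lists stand against 21.1% of all genes higher and 20.5% lower in VM-CUB1, and 14.7% higher and 15.2% lower in 5637. Nothing is read from a count near these shares. Of 15 measured genes of receptor signalling, VM-CUB1 had 8 that rose and 2 that fell, and 5637 had 5 and 1. The receptor kinases JAK1 (log2 fold change 0.45 in VM-CUB1 and 0.86 in 5637) and JAK2 (0.90 and 0.86) rose in both lines, as did IRF7, a transcription factor of interferon responses (1.75, SE 0.113, and 1.58, SE 0.082). The kinase gene PRKCD fell in VM-CUB1 (-1.52, SE 0.078), and the coactivator gene EP300 rose in VM-CUB1 (0.88) and fell in 5637 (-0.29).

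Of 13 negative regulators of interferon-gamma signalling, VM-CUB1 had 5 that rose and 2 that fell, and 5637 had 4 and 3. The numbers that fell are close to or below the shares of all genes, 20.5% and 15.2%. SOCS1, the feedback inhibitor of the JAK kinases, rose 2.24-fold in 5637 (log2 fold change 1.16, SE 0.094, adjusted p = 3.0e-05) and was not called in VM-CUB1 (-0.07, adjusted p = 0.48). For SOCS1 the lines differed by -1.24 (adjusted p = 2.8e-06). SOCS3, another feedback inhibitor, rose in both lines (1.30, SE 0.070, and 1.15, SE 0.061), and its difference of 0.15 did not pass the test (adjusted p = 0.23). The phosphatase gene PTPN6 fell in VM-CUB1 (-1.18, SE 0.064).

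Other interferon-gamma target genes rose in 5637 much more often than they fell. Of 44 measured, 30 rose and 1 fell in 5637, with a median log2 fold change of 0.62. TNFSF10, which encodes the death ligand TRAIL, rose 6.09-fold (SE 0.186) and the adhesion molecule gene ICAM1 4.78-fold (SE 0.056). EPSTI1 was the gene that fell (-1.05, SE 0.064). In VM-CUB1, 11 rose and 13 fell, with a median of -0.04, and these counts are not far from the shares of all genes (21.1% and 20.5%). There ICAM1 rose 2.22-fold (SE 0.074) and PLAAT4, a phospholipase and acyltransferase gene, 2.16-fold (SE 0.076), whereas IFI30, a lysosomal thiol reductase gene, was 6.57-fold lower (SE 0.076) and PSMB8 of the immunoproteasome 3.82-fold lower (SE 0.091).

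Of 8 other guanylate-binding proteins and large GTPases, 6 rose and 0 fell in 5637, and 1 rose and 3 fell in VM-CUB1. Among the 6, GBP6 was the only guanylate-binding protein, and GBP7 was not called. The antiviral GTPase gene MX1 was 3.87-fold higher in 5637 (SE 0.086) and 3.32-fold lower in VM-CUB1 (SE 0.112). Of 11 MHC class II genes, 2 rose and 0 fell in 5637, and 2 rose and 2 fell in VM-CUB1. CD74, the invariant chain gene, rose in 5637 (0.66, SE 0.062) and fell in VM-CUB1 (-0.36, SE 0.070). Without probe sets that share probes, 0 class II genes rose in either line. Genes with only such probe sets were no longer measured there, so a lost rise and a gene left out cannot be told apart.

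Beside IDO1, 15 genes of tryptophan and kynurenine metabolism were measured, of which 2 rose and 3 fell in 5637, and 4 rose and 6 fell in VM-CUB1. The 5637 counts are near the shares of all genes (14.7% and 15.2%). IDO2, the neighbouring paralogue of IDO1, was not called in VM-CUB1 (0.02, adjusted p = 0.86) or in 5637 (-0.16, adjusted p = 0.057). QPRT, which turns quinolinate into a precursor of NAD, rose 38.2-fold in VM-CUB1 (log2 fold change 5.26, SE 0.093, adjusted p = 1.8e-09), and TDO2, the other tryptophan dioxygenase, was 5.25-fold lower (SE 0.202). KYNU, kynureninase, was 2.23-fold lower in VM-CUB1 and 1.36-fold higher in 5637. AHR, the receptor that kynurenine can activate, rose 2.68-fold in 5637 (log2 fold change 1.42, SE 0.089) and 1.19-fold in VM-CUB1 (0.25, SE 0.053).

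Of 13 prenylation and partner genes, VM-CUB1 had 3 higher and 6 lower, and 5637 had 4 higher and 4 lower. FNTA, a subunit of the enzymes that attach lipid anchors to proteins such as GBP1, fell in both lines (-0.98, SE 0.058, and -1.06, SE 0.050), as did GSDMD, the pore-forming protein of pyroptosis (-0.60, SE 0.071, and -0.72, SE 0.072). CASP4, a caspase that GBP1 helps to bring to bacterial lipopolysaccharide, rose in both (0.86, SE 0.061, and 0.37, SE 0.054). PIM1, a kinase gene, was 3.94-fold lower in VM-CUB1.

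Of 18 measured markers of T cells, natural killer cells, myeloid cells and B cells, 2 rose and 0 fell in 5637, and 0 rose and 3 fell in VM-CUB1. The rises were those of NCAM1 (1.01, SE 0.074) and CD14 (0.92, SE 0.154), and the falls those of CD68, CD8A and CD14. The other measured markers of the list were not called in either line, and centred values do not show whether they were expressed. Without probe sets that share probes and with the methods' t-test 1 marker rose in 5637, and without such probe sets 1 fell in VM-CUB1. The part of other cell types in the rise of the 9 genes was not tested.

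**Figure D5:**
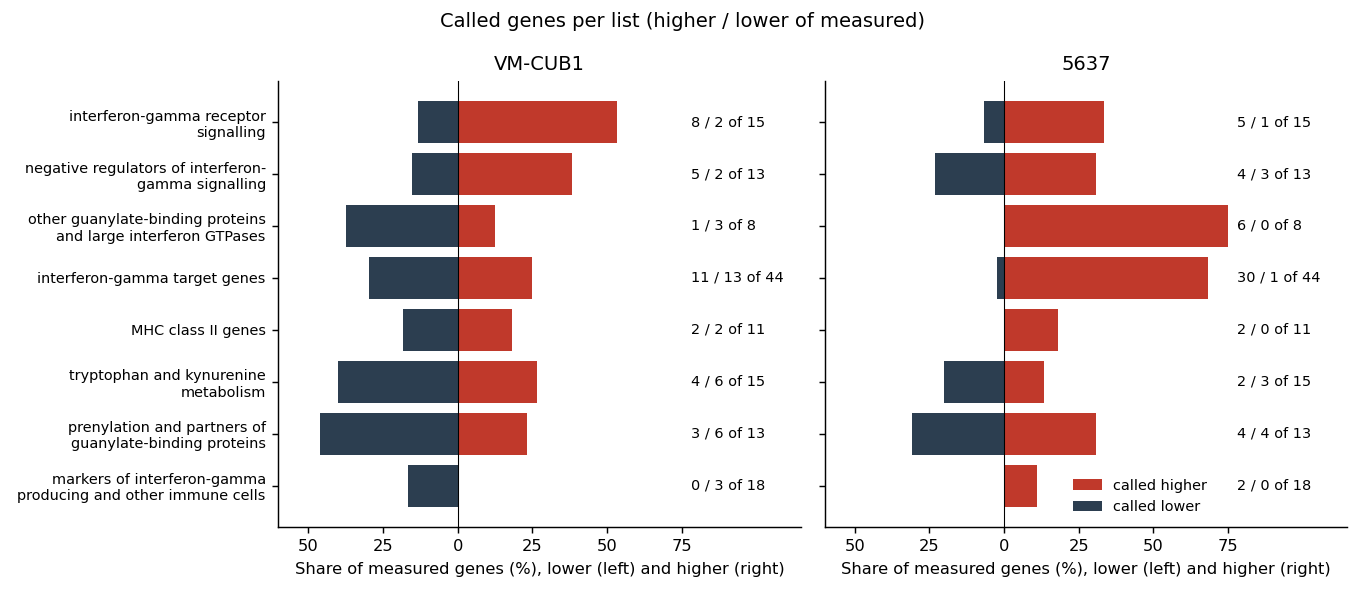
Share of the measured genes of each list (horizontal axis, percent) that were called higher (red, to the right) or lower (dark, to the left) in VM-CUB1 (left panel) and 5637 (right panel), with the counts written beside the bars. Interferon-gamma target genes stand at 30 higher and 1 lower of 44 in 5637 and at 11 higher and 13 lower in VM-CUB1.

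The genes outside the 9 whose values over the 12 arrays lay closest to those of GBP1 were IRX3, DNAAF11, ARG2, CDKN1C and MACROD2. IRX3, a homeobox gene, was at a Euclidean distance of 0.572 on the log2 scale, with log2 fold changes of 1.40 and 3.33. Closest to IRF1 were KCNN4, CHST12, IGFBPL1, IL13RA1 and ATP1B1, with KCNN4, a potassium channel gene, at a distance of 0.181 (log2 fold changes -0.04 and 0.93). These points share the arrays and the centring.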

How the data were processed

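RNA of 12 preparations was hybridised to PrimeView 3′ IVT arrays. The deposited values, log2 signals of 49395 probe sets, came from GeneSpring GX, where the authors set each probe set to a median baseline. RMA is named in the submitters' processing notes. In these values each probe set has a median of 0 in each line to within 5.0e-07, so the methods' filter for signal above background could not be applied. After 102 controls were left out, 44988 probe sets had 1 symbol, 1832 several and 2473 none. For 27 the gene identifier had no match in RefSeq, and 0 symbols were changed.

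The 9 genes and all lists were chosen with earlier results of these data known. Members were reported in full. From each list, up to 2 called genes with the largest rise and up to 2 with the largest fall per line could be named, together with IFNG, JAK1, JAK2, SOCS1, GBP6, GBP7 and IDO2. KYAT3, RBMXL1, LRRC8B and LRRC8C were named as the nearest measured neighbours, and the 5 genes closest to GBP1 and to IRF1 by Euclidean distance. The lists covered receptor signalling, negative regulators, other large GTPases, target genes, MHC class II, tryptophan metabolism, prenylation and partners, and immune cell markers. Genes without a probe set of 1 symbol were not analysed here, and 1 further item is not reported here.

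Each line was fitted with limma 3.58.1 (lmFit and eBayes, R 4.3.3) over all genes, and separately over all 49293 non-control probe sets. The difference between the lines was the interaction over 12 arrays. The procedure was tested on simulated data. Alternatives were the median of probe sets, leaving out probe sets that share probes, the methods' t-test (an ordinary linear model for the difference), 1 fit of all 12 arrays, robust eBayes, centring of arrays, quantile normalization, a threshold of 0.05, the replicate number as a block, leaving out each array, and, chosen after seeing the data, single probe sets. Start site windows with their coordinates and the gene order were taken from RefSeq (GRCh38.p14). The genome build of the array annotation is not given in the sources used here. Further steps ran in Python 3.11.15 with pandas 2.3.3 and matplotlib 3.10.9. The 12 columns held 0 pairs of identical arrays.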

Additional observations from a re-analysis of the deposited data

Results flagged for a closer look

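For 6 of the 9 genes the HOTAIR effect differed between the lines by the interaction test of limma. On the log2 scale, VM-CUB1 minus 5637, the difference was 3.86 for GBP3 (5.23 and 1.37, SE 0.150, adjusted p = 1.9e-10), with larger rises in VM-CUB1. It was -2.07 for GBP1 (1.44 and 3.51), -1.72 for GBP2 (1.66 and 3.38) and -1.87 for IDO1 (0.60 and 2.48), with larger rises in 5637. It was -1.09 for IRF1 (-0.09 and 1.01) and -0.96 for IFNGR1 (-0.06 and 0.90), which were called in 5637 alone. Adjusted p was 6.2e-06 or lower for each. These p-values reflect how RNA preparations vary. With 1 clone per group, differences between lines and between clones cannot be told apart.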

How the results depend on the processing

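Of 471 values of single members under an alternative, 451 kept their direction and their side of the threshold. Some of these still moved by over 1.5 times: with quantile normalization within each line the difference between the lines was -1.33 for GBP1 and -0.99 for GBP2, and with the median of its probe sets GBP4 in VM-CUB1 was 0.83. IFNGR2 lost its call with the methods' t-test in VM-CUB1 (0.44, adjusted p = 0.021) and 5637 (0.25, adjusted p = 0.021), and in 5637 also in 1 fit of all 12 arrays (0.25, adjusted p = 0.011), with the replicate number as a block (0.25, adjusted p = 0.017) and without single arrays (0.21 to 0.28). GBP5 became called at a threshold of 0.05 in VM-CUB1 (0.17) and 5637 (0.39), in 1 fit of all 12 arrays in 5637 (0.39, adjusted p = 0.0017), and in 2 of the 6 fits without a single array there, at 0.47 (without 5637_HOTAIR 4 replicate 2) and 0.49 (without 5637_LV replicate 1), the range over all 6 being 0.32 to 0.49. Single probe sets were not called for GBP4 (lowest 0.46 in VM-CUB1 and 0.23 in 5637), IRF1 (lowest 0.01 in 5637) and, adjusted over all probe sets, IFNGR2 (its single set at 0.25 in 5637, adjusted p = 0.017), and turned the sign of uncalled values for IRF1 (0.12) and IFNGR1 (0.06) in VM-CUB1. The difference of GBP4 between the lines turned to -0.15 (adjusted p = 0.65) with the median of its probe sets. The cause of these changes was not tested. Called members numbered 6 in VM-CUB1 and 7 to 9 in 5637 without single arrays, and 5 and 7 with the methods' t-test.

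The replicate numbers did not pair the arrays: the correlations of same-numbered deviations from the group means were between -0.0454 and 0.0833. With the replicate number as a block, 6 members were called in VM-CUB1, 7 in 5637 and 6 for the difference, IFNGR2 in 5637 (0.25) being the call that was lost.

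Small counts of the lists moved by over 1.5 times, among them these. With the methods' t-test, 8 target genes fell in VM-CUB1 in place of 13, 3 negative regulators rose in place of 5 and 1 fell in place of 2, 1 class II gene rose and 1 fell in place of 2 each, and 1 signalling gene fell in place of 2. In 5637 that test gave 1 tryptophan gene lower in place of 3, 2 partner genes higher and 2 lower in place of 4 each, 1 class II gene higher and 0 signalling genes lower. The block gave 1 negative regulator lower and 1 partner gene higher in VM-CUB1, and in 5637 2 partner genes higher in place of 4 and 0 signalling genes lower. Without probe sets that share probes, 2 tryptophan genes rose in VM-CUB1 and 2 partner genes fell in 5637. In that setting, genes of any list with only such probe sets were not measured. Without single arrays of VM-CUB1, 1 signalling gene fell (any array but VM-CUB1_LV replicate 1), 1 negative regulator fell (VM-CUB1_HOTAIR 20 replicates 2 and 3, VM-CUB1_LV replicate 3), 1 MHC class II gene rose (any array but VM-CUB1_HOTAIR 20 replicate 3) or fell (VM-CUB1_HOTAIR 20 replicate 1, VM-CUB1_LV replicate 2), and 1 partner gene rose (replicates 2 and 3 of either group). In 5637, 0 signalling genes fell (5637_HOTAIR 4 replicates 1 and 3, 5637_LV replicates 1 and 2), 2 partner genes rose (5637_HOTAIR 4 replicates 1 and 2, 5637_LV replicate 2) and 2 fell (replicate 3 of either group). With the median of probe sets, 1 class II gene rose and 1 fell in VM-CUB1. Quantile normalization or 1 fit of all 12 arrays gave 0 lower signalling genes in 5637. At a threshold of 0.05, lower genes numbered 4 among negative regulators in VM-CUB1, and in 5637 5 among these, 3 among signalling genes and 2 among immune markers, and 4 tryptophan genes rose. With centred values, depth of signal over background could not be assessed.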
